A study of Mus musculus with 8 samples.

Results

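The 36 skeletal muscle genes described here were measured in palatal shelves dissected from 8 mouse embryos at embryonic day 13.5. They are 6 myogenic regulators, 1 fusion gene, 8 thick filament genes, 11 thin filament genes, 3 elastic and scaffold genes, 1 enzyme, 2 genes of the triad and 4 of the endplate. All 36 symbols were matched to an Ensembl identifier among the 19083 genes of the deposited table. The study set Pax9 null shelves against controls. Pax9 encodes a paired-box factor that palate growth depends on. The null group (Pax9-/-) held 4 embryos, and the controls were 2 wild types and 2 heterozygotes (Pax9+/-), all labelled C57BL/6. None of the 8 was treated, and the drug named in the protocol text does not apply to them. The labels do not say which part of Pax9 the mutant allele lacks, nor which embryos were littermates. The p-values below therefore measure only the spread between these 8 embryos. Per the series' design text, each palate was lysed on its own.

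Skeletal muscle of the head arises from head mesoderm, in which progenitors marked by Pax7 switch on the MyoD family of transcription factors (Myf5, Myod1, Myog and Myf6). Committed myoblasts then leave the cell cycle, fuse through myomaker and switch on the genes of the sarcomere, of the triad that couples excitation to calcium release, and of the endplate where the nerve makes contact. The palate gains its muscle in the soft palate at the back, and the tongue and jaw muscles lie close to the shelves, so a dissection of shelves can hold muscle in varying amount. In RNA from a whole dissection, fewer muscle cells and less muscle RNA per cell cannot be told apart.

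Values are FPKM, that is fragments of a gene scaled by its exon length and by the library's total of assigned fragments. A gene was tested when its FPKM was at least 1 in 2 or more libraries, and 34 of the 36 members passed. Ttn, Cacna1s, Chrnd and Musk passed through null 1 and null 2 alone, and Myf5 and Myh8 passed through libraries of the first 4 columns alone. The table lists null 1, wild type 1, null 2 and wild type 2 first, then null 3, heterozygote 1, null 4 and heterozygote 2. This position is no label of a batch, and within the controls it cannot be told apart from genotype, since both wild types stand among the first 4 and both heterozygotes among the last. The first 4 and the last 4 columns are called column sets here. Each column set pairs 1 null with 1 control of each number, 44 or 56, that the sample titles carry. Pax9 itself was at 7.19 to 10.3 FPKM in the null libraries and at 26.2 to 35.8 in the controls, so the genotype labels and the Pax9 level went together. Between 37069101 and 51210254 reads were assigned to genes per library, of which the members took between 0.0452% (17498 reads, heterozygote 1) and 0.168% (63760 reads, null 2).

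The MyoD family binds the E-box, the motif CANNTG, and the promoters of 5 members from the regulator, thin filament and endplate groups are printed here because these genes varied together over the libraries. Each runs from 250 bases before to 50 bases after a RefSeq start on GRCm38.p6, from 5′ to 3′ on the strand of the gene, with every E-box in capitals. The Myog window is chr1:134289754-134290053 on the plus strand, Chrng is chr1:87205561-87205860 on the plus strand, Chrna1 is chr2:73580289-73580588 on the minus strand, Actc1 is chr2:114052826-114053125 on the minus strand and Acta1 is chr8:123894726-123895025 on the minus strand.
Myog: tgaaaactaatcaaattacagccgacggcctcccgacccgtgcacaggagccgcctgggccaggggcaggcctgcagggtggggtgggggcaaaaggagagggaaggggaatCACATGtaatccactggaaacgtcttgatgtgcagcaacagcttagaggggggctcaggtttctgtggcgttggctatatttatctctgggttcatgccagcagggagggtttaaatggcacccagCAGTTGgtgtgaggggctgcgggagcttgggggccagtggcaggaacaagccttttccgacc
Chrng: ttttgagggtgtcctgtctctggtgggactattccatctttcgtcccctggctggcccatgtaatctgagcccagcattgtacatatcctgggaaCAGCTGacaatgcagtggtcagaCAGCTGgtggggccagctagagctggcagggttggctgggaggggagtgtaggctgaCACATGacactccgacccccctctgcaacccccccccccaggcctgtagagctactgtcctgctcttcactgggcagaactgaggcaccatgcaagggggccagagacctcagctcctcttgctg
Chrna1: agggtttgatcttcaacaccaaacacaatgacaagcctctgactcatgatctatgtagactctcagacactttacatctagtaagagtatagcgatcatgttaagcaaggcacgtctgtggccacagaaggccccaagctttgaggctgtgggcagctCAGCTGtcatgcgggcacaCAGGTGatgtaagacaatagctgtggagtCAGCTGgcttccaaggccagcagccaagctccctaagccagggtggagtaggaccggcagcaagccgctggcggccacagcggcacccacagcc
Actc1: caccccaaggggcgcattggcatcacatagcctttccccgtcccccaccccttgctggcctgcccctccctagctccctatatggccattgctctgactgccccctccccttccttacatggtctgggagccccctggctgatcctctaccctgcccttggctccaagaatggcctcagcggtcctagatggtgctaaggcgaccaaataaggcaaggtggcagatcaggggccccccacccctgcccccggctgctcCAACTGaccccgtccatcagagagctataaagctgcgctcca
Acta1: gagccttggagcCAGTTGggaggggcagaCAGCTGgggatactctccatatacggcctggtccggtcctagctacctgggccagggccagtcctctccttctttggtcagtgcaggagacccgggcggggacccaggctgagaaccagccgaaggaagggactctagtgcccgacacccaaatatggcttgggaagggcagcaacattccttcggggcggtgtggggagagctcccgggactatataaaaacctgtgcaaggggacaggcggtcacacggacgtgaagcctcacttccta
Myog held 2 E-boxes, at −138 and −12 from the start. In Chrng and Chrna1 there were 3 each, of which 2 had the form CAGCTG. The Acta1 window held 2 E-boxes, 1 of them CAGCTG at −221, and Actc1 held 1, at 9 bases after the RefSeq start used. The letters TATAAA of the Actc1 window lay after it, at 34 from the same start. RefSeq windows were found for 29 members, in 34 windows. An E-box on either strand was in 85.3% of them and in 72.3% of 32841 promoters of all genes. The form CAGCTG, which is also counted among the E-boxes, was in 47.1% of the members' windows and in 16.3% of all. The letters TATAAA were in 32.4% against 13.6%, and the M-CAT letters CATTCC, read on both strands, in 26.5% against 14.7%. The MEF2 site, searched by its name's consensus, was in 8.82% against 3.19%. The CArG box, the site of serum response factor, was in the 2 actin promoters printed above and in no other member window, 5.88% against 1.63% of all. These matches describe letters in 300-base windows and do not show binding.

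All 8 libraries held muscle RNA, at levels that differed several-fold, and the members varied as a block. Null 1 and null 2 were the 2 highest libraries for 34 of the 36 members, and wild type 2 was the third for 34. Null 3 and wild type 1 followed in the middle. Heterozygote 1, null 4 and heterozygote 2 were the 3 lowest for 25. The ratio of the highest to the lowest library had a median of 5.21 over the members and ran from 1.62 for Mef2c to 11.0 for Ckm. The SD of log2(FPKM + 0.5) over the 8 libraries had a median of 0.76 over the tested members and of 0.12 over all 13600 tested genes. Of the members, 33 lay above the 90th percentile of all tested genes, an SD of 0.25. After the members' median profile was subtracted, the median SD was 0.19, and the most that remained was 0.65 for Mef2c, 0.42 for Myf5 and 0.41 for Acta1.

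**Figure D1:**
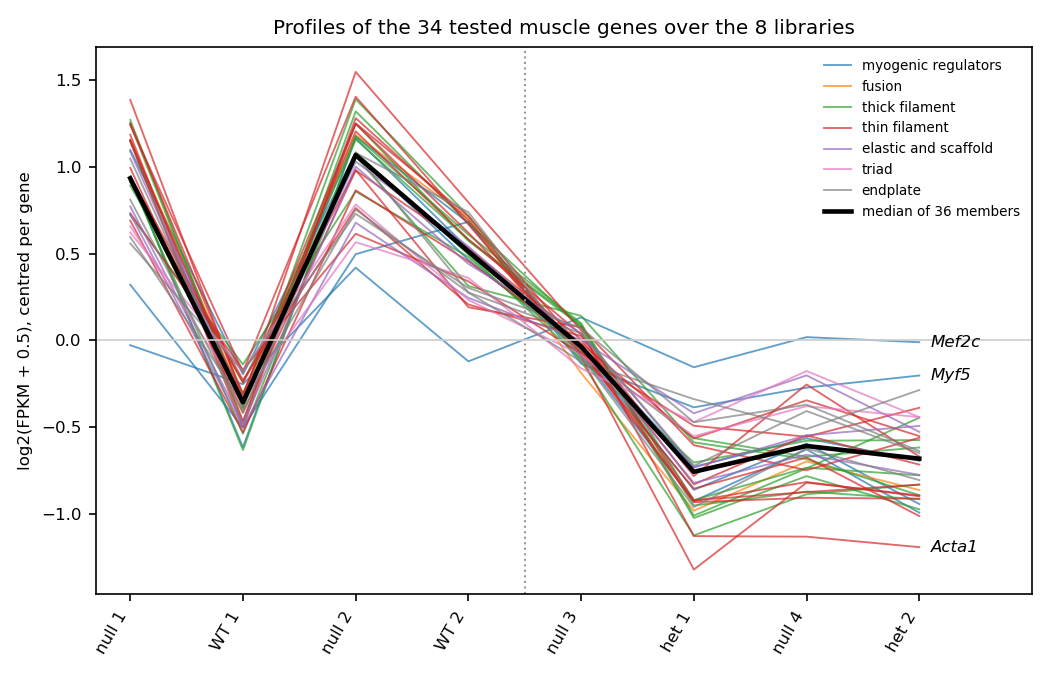
Level of each of the 34 tested muscle genes in each library, as log2(FPKM + 0.5) minus the gene's mean, with libraries in the order of the table and the dotted line between its column sets. Coloured lines are genes by role and the black line is the median of 36 members; null 1 and null 2 are the highest, and the lines of Mef2c and Myf5 leave the common course.

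Among the myogenic regulators, Myog, the differentiation factor of the MyoD family, was the most abundant per length. The values that follow are in replicate order within each genotype. Myog (ENSMUSG00000026459, chromosome 1, 134289989 to 134292548 on GRCm38) was at 45.7, 46.5, 19.1 and 12.9 FPKM in null, 15.6 and 32.7 in wild type and 10.4 and 9.94 in heterozygote libraries. Myod1 (ENSMUSG00000009471, chromosome 7, 46376474 to 46379099 on GRCm38), the determination factor, was at 20.3, 20.1, 8.96 and 5.95 FPKM in null, 8.01 and 12.9 in wild type and 4.86 and 4.57 in heterozygote libraries. Both were highest in null 1 and null 2 and lowest in heterozygote 2, and the null and control libraries overlapped. For Myod1 the null mean was 13.8 ± 7.47 FPKM (SD, n = 4) and the control mean 7.60 ± 3.89 FPKM (SD, n = 4), a log2 difference of 0.77 ± 0.43 log2 (SE) with limma and an adjusted p of 0.832. Myf5, which marks earlier myoblasts, was low, at 1.37, 1.61, 0.861 and 0.737 FPKM in null, 0.554 and 1.90 in wild type and 0.643 and 0.798 in heterozygote libraries. It was the only tested regulator besides Mef2c with a library other than null 1 or null 2 among its 2 highest, namely wild type 2. Myf6, a factor of maturing fibres, lay at 0.164 FPKM or lower in every library, on 1 to 10 reads, and was not tested.

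Mef2c, a partner of the MyoD family that is also used by neural crest mesenchyme and endothelium, behaved unlike the other regulators. The gene is ENSMUSG00000005583, chromosome 13, 83504034 to 83667080 on GRCm38. It was at 13.6, 18.8, 15.3 and 14.1 FPKM in null, 11.6 and 12.7 in wild type and 12.4 and 13.8 in heterozygote libraries. All 8 values lay within a 1.62-fold range, with null 2 the highest and wild type 1 the lowest. Smyd1, a methyltransferase of striated muscle, was at 4.29, 5.09, 1.94 and 1.18 FPKM in null, 1.13 and 3.09 in wild type and 1.00 and 1.04 in heterozygote libraries. Its 4 highest libraries were those of Myog, in the same order. Mymk, which encodes the fusion protein myomaker, was at 7.99, 8.17, 2.85 and 1.85 FPKM in null, 2.58 and 5.72 in wild type and 1.43 and 1.60 in heterozygote libraries. Its 5 highest libraries stood in the order of Myog, and the highest was 5.70 times the lowest.

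**Figure D2:**
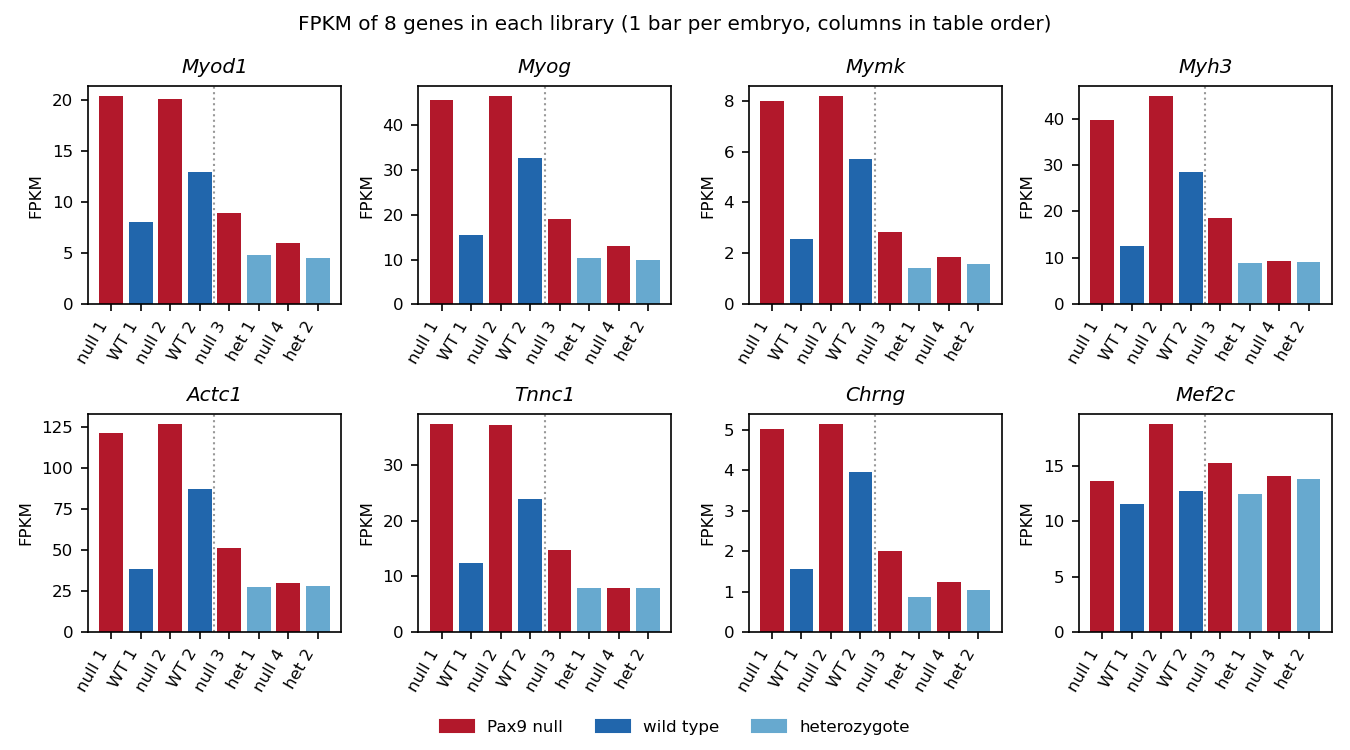
FPKM of 8 members from the regulator, fusion, sarcomere and endplate groups, 1 bar per embryo on axes that start at 0, in the order of the table with a dotted line between its column sets. Red bars are Pax9 null, dark blue wild type and light blue heterozygote; in 7 panels null 1 and null 2 stand highest and the last 3 bars are low, while the bars of Mef2c are nearly level.

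The thick filament genes were led by Mylpf, the fast regulatory light chain. It was at 78.2, 77.1, 34.0 and 18.5 FPKM in null, 24.4 and 48.0 in wild type and 15.5 and 16.1 in heterozygote libraries. Myh3, the embryonic myosin heavy chain, was at 39.7, 44.8, 18.6 and 9.41 FPKM in null, 12.5 and 28.5 in wild type and 8.87 and 9.11 in heterozygote libraries. In both, null 1 and null 2 lay above every other library, and null 4 lay close to the heterozygotes. Mybph, the myosin binding protein H gene, was at 18.1, 20.0, 6.70 and 3.73 FPKM in null, 5.47 and 12.4 in wild type and 3.09 and 3.89 in heterozygote libraries, and Myl1, a fast essential light chain, at 9.50, 11.2, 5.06 and 2.61 FPKM in null, 2.85 and 7.43 in wild type and 2.08 and 3.31 in heterozygote libraries. Myl4, the essential light chain of embryonic and atrial muscle, was at 6.43, 7.72, 3.42 and 1.71 FPKM in null, 2.47 and 5.00 in wild type and 1.44 and 1.65 in heterozygote libraries. All of these had null 1 and null 2 on top and heterozygote 1 at the bottom. Myh7, the slow and cardiac beta heavy chain, reached 3.19 FPKM in its highest library and 0.454 in its lowest. The perinatal heavy chain Myh8 spanned 0.453 to 2.79, and Mybpc1, the slow myosin binding protein C, 0.767 to 3.16. Some of these levels are uncertain, because the kit does not mark strand and near-identical sequence is shared. Of the exon bases of Mybph, 49.9% overlap Adora1 on the other strand. Of 50-base words, Myh7 shares 22.2%, mostly with Myh6, Myh8 shares 21.4%, mostly with other heavy chains, and Myl1 shares 23.4%, mostly with its pseudogene.

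Actc1, the cardiac actin that is the main sarcomeric actin of embryonic skeletal muscle, was the most abundant member per length. It is ENSMUSG00000068614, chromosome 2, 114047282 to 114053548 on GRCm38. Its level was 121, 127, 51.5 and 29.9 FPKM in null, 38.3 and 87.5 in wild type and 27.7 and 28.2 in heterozygote libraries. Acta1 (ENSMUSG00000031972, chromosome 8, 123891769 to 123894751 on GRCm38), the actin of mature skeletal muscle, was at 36.2, 40.5, 14.1 and 5.90 FPKM in null, 10.6 and 23.8 in wild type and 5.91 and 5.64 in heterozygote libraries. The 5 highest libraries stood in the same order in both, and Acta1 had the largest first-to-last difference of the tested members. Tpm2, beta tropomyosin, which smooth muscle and other cells also use, was at 47.5, 43.7, 26.9 and 19.2 FPKM in null, 25.2 and 36.1 in wild type and 20.0 and 21.6 in heterozygote libraries. Its range of 2.48-fold was the second narrowest after Mef2c. The slow troponin genes were the more abundant of each pair. Tnnc1, troponin C of slow and cardiac muscle, was at 37.4, 37.3, 14.8 and 7.99 FPKM in null, 12.4 and 24.0 in wild type and 7.84 and 7.96 in heterozygote libraries. Tnni1, slow troponin I, was at 23.3, 24.1, 10.4 and 5.31 FPKM in null, 7.88 and 15.5 in wild type and 5.13 and 5.49 in heterozygote libraries. Tnnt1, slow troponin T, was at 24.0, 23.8, 11.9 and 7.93 FPKM in null, 8.74 and 17.3 in wild type and 6.43 and 7.00 in heterozygote libraries. In each of these 3, null 1 and null 2 were nearly equal and the heterozygotes and null 4 lay below wild type 1. Tnnt2, the cardiac troponin T that embryonic skeletal muscle also makes, was at 15.5, 17.1, 6.39 and 4.04 FPKM in null, 4.61 and 11.2 in wild type and 3.51 and 3.09 in heterozygote libraries. Fast troponin C, Tnnc2, was at 13.1, 14.7, 4.90 and 2.76 FPKM in null, 4.57 and 8.65 in wild type and 1.80 and 2.60 in heterozygote libraries, but 74.0% of its exon bases overlap Ube2c on the other strand. Tnnt3, fast troponin T, was at 3.90, 4.11, 1.96 and 0.890 FPKM in null, 1.47 and 2.17 in wild type and 1.04 and 1.08 in heterozygote libraries. Tnni2 (ENSMUSG00000031097, chromosome 7, 142441808 to 142444410 on GRCm38), fast troponin I, was at 2.46, 2.11, 1.07 and 0.791 FPKM in null, 0.814 and 1.28 in wild type and 0.396 and 0.468 in heterozygote libraries. In all 3 the lowest library was heterozygote 1 or null 4. Neb, the giant ruler protein of the thin filament, was at 2.26, 2.62, 1.19 and 0.846 FPKM in null, 0.684 and 1.85 in wild type and 0.656 and 0.667 in heterozygote libraries.

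Des, the muscle intermediate filament desmin, was at 9.71, 9.31, 4.19 and 2.54 FPKM in null, 3.21 and 6.48 in wild type and 2.22 and 2.30 in heterozygote libraries. Klhl41, a Kelch protein that stabilises nebulin, was at 5.34, 6.35, 3.02 and 1.84 FPKM in null, 1.95 and 4.14 in wild type and 1.56 and 1.93 in heterozygote libraries. Ttn, the elastic giant of the sarcomere, was at 1.21, 1.15, 0.533 and 0.397 FPKM in null, 0.229 and 0.723 in wild type and 0.271 and 0.216 in heterozygote libraries. Its 2 libraries above 1 FPKM were null 1 and null 2, and the others lay between 0.216 and 0.723. Ckm, muscle creatine kinase, which comes on late in fibre maturation, was at 0.203 FPKM or lower on 1 to 14 reads and was not tested. Ryr1, the calcium release channel of the triad, was at 3.16, 2.93, 1.57 and 1.55 FPKM in null, 1.35 and 2.48 in wild type and 1.17 and 1.21 in heterozygote libraries. Cacna1s, the voltage sensor that opens it, was at 1.13, 1.33, 0.503 and 0.317 FPKM in null, 0.439 and 0.748 in wild type and 0.224 and 0.282 in heterozygote libraries, with 20.0% of its exon bases antisense to Gm37759. Ryr1 varied less, with a highest library 2.69 times the lowest against 5.93 times for Cacna1s. Among the acetylcholine receptor subunits of the endplate, the fetal gamma subunit Chrng was the highest per length, at 5.02, 5.15, 2.00 and 1.23 FPKM in null, 1.55 and 3.95 in wild type and 0.872 and 1.03 in heterozygote libraries. The alpha subunit Chrna1 was at 2.73, 3.38, 1.40 and 0.890 FPKM in null, 0.879 and 1.73 in wild type and 0.617 and 0.675 in heterozygote libraries. The delta subunit Chrnd was at 1.28, 1.50, 0.770 and 0.435 FPKM in null, 0.569 and 0.991 in wild type and 0.372 and 0.277 in heterozygote libraries. Musk, the kinase that organises the endplate, was at 1.07, 1.25, 0.454 and 0.228 FPKM in null, 0.306 and 0.756 in wild type and 0.321 and 0.351 in heterozygote libraries. Each of the 4 was highest in null 2, with null 1 second.

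Set against the 4 controls, the 4 null libraries had the higher mean log2 level for all 36 members, but null and control libraries overlapped for each. With limma, 0 of the 34 tested members were called at an adjusted p under 0.05, where 57 of 13600 tested genes (0.419%) were. At an unadjusted p under 0.05 there were 3 members (Mef2c, Tnni2 and Ttn) and 972 genes in all (7.15%). Of the 3, Ttn had passed the filter through null 1 and null 2 alone. The count of members moved strongly when 1 library was left out. It was 32 without null 4 and 24 without wild type 2, 4 without null 3, 0 without wild type 1 and 1 without each of the other 4, with 0 called each time. With voom on the recovered reads, 0 members were called and 4 had an unadjusted p under 0.05. The log2 differences of the tested members ran from 0.20 for Myf5 to 0.93 for Acta1, with adjusted p between 0.524 and 0.983. Over all 36 members the median log2 difference was 0.71, against −0.01 over all tested genes. For Actc1 the means were 82.4 ± 49.0 FPKM (SD, n = 4) and 45.4 ± 28.5 FPKM (SD, n = 4), a log2 difference of 0.79 ± 0.51 log2 (SE) with an adjusted p of 0.882. The members' median profile had a pooled SD of 0.70 log2 within the null and control groups. That spread includes the difference between the column sets. Within null and control of each column set the pooled SD was 0.37 log2. No member had all null libraries above all controls, against 1.83% of the tested genes. The median of the members was 0.26 against the wild types and 1.09 against the heterozygotes, with 0 members called in either, where 0.382% and 0.0809% of all tested genes were. At an unadjusted p under 0.05 there were 1 and 21 members, and 11.6% and 6.95% of all tested genes. Both wild types stand in the first 4 columns and both heterozygotes in the last 4. Control genotype and column set therefore cannot be told apart in these comparisons.

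Pairing each null with the control of the same column set and title number gave 4 differences. Null 1 minus wild type 1 had a median of 1.27 log2 over the members, with all 36 above 0. Null 2 minus wild type 2 gave 0.55 with 35 above 0, the exception being Myf5. Null 3 minus heterozygote 1 gave 0.78 with 35 above 0, and null 4 minus heterozygote 2 gave 0.07 with 25 above 0. The pair carrying 56 in the first 4 columns thus differed most, and the pair carrying 44 in the last 4 hardly at all. The same medians over all tested genes were −0.01, −0.03, 0.01 and −0.01. Null was above control in 46.4%, 41.1%, 52.0% and 47.0% of all tested genes in these pairs, in the same order. Null 1 and null 2 lay above both wild types in 35 members and null 3 above both heterozygotes in 34, while null 4 was at or below the higher heterozygote in 14. Shares over all tested genes were not computed for these counts. The members varied as a block, so the counts are not independent.

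With the column set as a block, 1 of 34 members was called, Tnni2, which was higher in null by 0.74 ± 0.13 log2 (SE; limma, adjusted p = 0.0381). Over all genes, 78 of 13600 (0.574%) were called higher in null in that fit. Within each column set and title number, Tnni2 was higher in null by 1.17, 0.56, 0.81 and 0.42 log2, that is in 4 of 4 pairs. These are the same values as in the fit and add no separate support. Being higher in all 4 pairs was not particular to Tnni2: Myod1 and Acta1 were too, while Mybph and Tnni1 were not. Tnni2 had 23 to 180 reads per library. In the same fit 32 of the 34 members had an unadjusted p under 0.05, against 17.1% of all tested genes, and the adjusted p of the members other than Tnni2 went from 0.0733 to 0.715. With the 4 pairs as blocks, a fit chosen after seeing the data, Tnni2 did not pass (adjusted p = 0.0562) and 0 members were called, where 1.04% of all genes were called higher in null; 31 members and 21.6% of all genes had an unadjusted p under 0.05. Whether the null effect differed between the column sets was tested by an interaction term. It was larger in the first 4 columns for all 36 members, by a median of 0.47 log2, but no member and none of the 13600 genes (0.0%) was called, with adjusted p of 1.00 for each member; 0 members and 128 genes had an unadjusted p under 0.05.

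The first 4 columns held more muscle RNA than the last 4. With genotype in the fit, 32 of the 34 tested members were called higher in the first 4 columns with limma, where 21.3% of all tested genes were called higher. This count includes 5 of the 6 members that passed the filter through the first 4 columns alone. Without those 6 it was 27 of 28. In all, 5526 of 13600 genes were called between the column sets, 2894 higher and 2632 lower, with a median absolute log2 difference of 0.22. The called members lay between 0.57 and 1.70 log2, and all 32 were among the 172 genes called higher by 0.5 log2 or more. Over all 36 members the median was 1.01, against 0.002 over all tested genes.

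By role, the called members were 3 of 5 tested regulators, the fusion gene, all 8 thick filament and all 11 thin filament genes, the 3 elastic and scaffold genes, both triad genes and the 4 endplate genes. Of these, Myh8, Ttn, Cacna1s, Chrnd and Musk passed the filter only through the first 4 columns, where they were high. Their calls are therefore not independent of the filter. Acta1 had 27.8 ± 13.4 FPKM (SD, n = 4) in the first 4 columns and 7.88 ± 4.14 FPKM (SD, n = 4) in the last, a difference of 1.70 ± 0.31 log2 (SE) (adjusted p = 0.00505). Myod1 differed by 1.22 ± 0.17 log2 (SE) (adjusted p = 0.00267). Myog differed by 1.32 ± 0.22 log2 (SE) (adjusted p = 0.00399). The tested regulators other than Mef2c and Myf5 were called, and all thick and thin filament genes lay between 0.74 and 1.70 log2. Mymk differed by 1.37 ± 0.22 log2 (SE) (adjusted p = 0.00369), and Chrng by 1.24 ± 0.23 log2 (SE) (adjusted p = 0.00560). Ttn, with 0.57 ± 0.18 log2 (SE), had the smallest called difference (adjusted p = 0.0376). The other 2 tested members did not pass. Mef2c differed by 0.01 ± 0.10 log2 (SE) (adjusted p = 0.956), and Myf5 by 0.50 ± 0.23 log2 (SE) (adjusted p = 0.115).

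The column sets overlapped for every member. No member had all libraries of the first 4 columns above all of the last 4, against 17.1% of the tested genes. Within the null libraries alone, all 36 members were higher in the first 4 columns, by a median of 1.32 log2. Within the controls alone, where the sets are wild type and heterozygote, 34 were higher, by a median of 0.74. In these fits of 2 against 2 no gene of 13600 was called with limma; 33 and 22 members had an unadjusted p under 0.05, and 3904 and 3891 genes in all. The 2 not higher within the controls were Mef2c and Myf6.

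**Figure D3:**
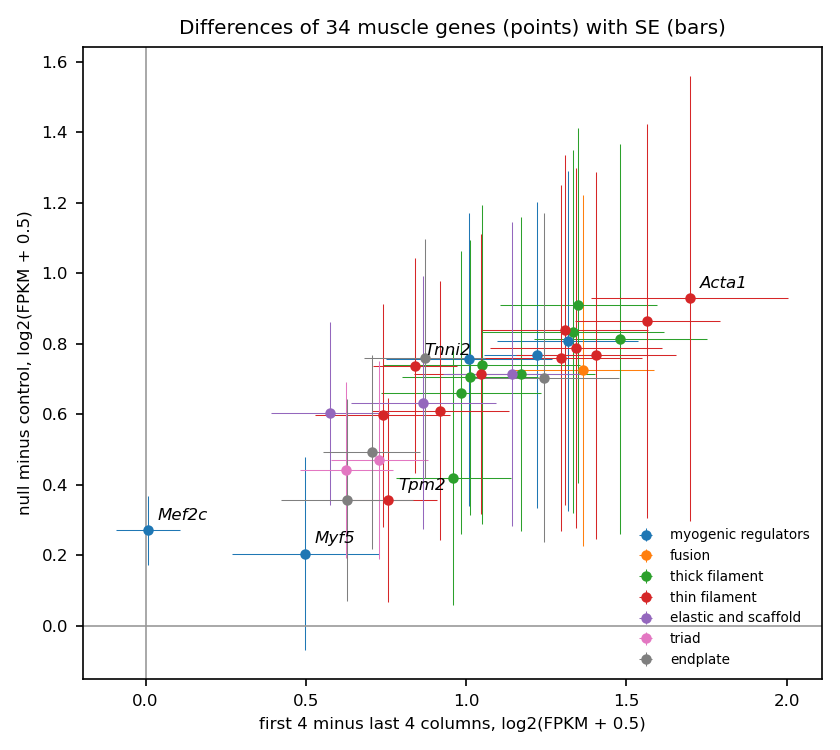
Null minus control difference against first minus last 4 columns difference of the 34 tested members, both as log2(FPKM + 0.5), with SE from limma as bars and colours by role. All points lie above 0 on both axes; Acta1 is the farthest to the right at 1.70 and Mef2c lies near 0 on the horizontal axis.

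Ratios between muscle genes within a library differed far less than the levels. Myog was 0.352 to 0.433 of Actc1 per length in the 8 libraries, a 1.23-fold range, while Actc1 itself ranged 4.59-fold. Myod1 was 0.395 to 0.515 of Myog. Pax7, the progenitor factor, was 0.0976 to 0.121 of Myod1. For these 3 ratios, which set progenitor, determination and differentiation genes against each other, the null and control ranges overlapped. Slow troponin I was 6.71 to 13.0 times fast troponin I, slow troponin T 5.78 to 8.90 times the fast form and slow troponin C 2.53 to 4.35 times the fast form. The fetal subunit Chrng was 1.52 to 2.28 times Chrna1 in the first 4 columns and 1.39 to 1.52 times in the last.

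Other ratios differed more between libraries. Acta1 was 0.272 to 0.319 of Actc1 in the first 4 columns and 0.197 to 0.273 in the last. Myf5 ran from 0.0671 of Myod1 in null 1 to 0.175 in heterozygote 2, with 0.0692 in wild type 1 and 0.147 in wild type 2. Tpm2 was 0.344 of Actc1 in null 2 and 0.764 in heterozygote 2. Mef2c ran from 0.298 of Myog in null 1 to 1.39 in heterozygote 2. Msc, a repressor of the MyoD family that head muscle progenitors use, was 0.242 to 0.525 of Myod1, highest in wild type 2.

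**Figure D4:**
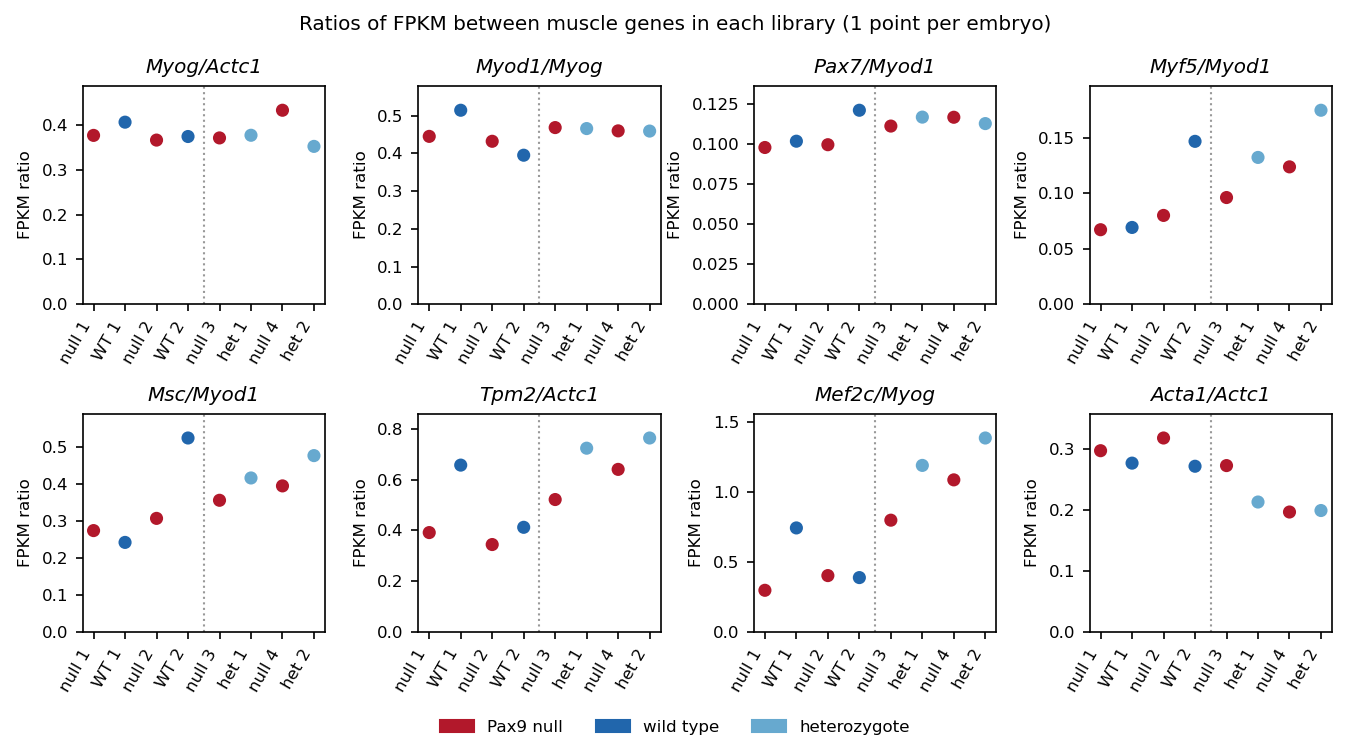
Ratio of FPKM between 8 pairs of muscle genes in each library, 1 point per embryo on axes that start at 0, in the order of the table with a dotted line between its column sets. Red points are Pax9 null, dark blue wild type and light blue heterozygote; the top row except Myf5 to Myod1 is nearly level, and Mef2c to Myog spans 0.298 to 1.39.

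Of 62 further skeletal muscle genes listed beside the members, 59 were in the table and 38 passed the filter. Between the column sets 33 were called higher in the first and 1 lower with limma, where 21.3% and 19.4% of all tested genes were. Between null and control 0 were called, where 0.419% of all tested genes were, with 5 at an unadjusted p under 0.05 (7.15% of all). Actn2, alpha actinin of the Z disc, differed by 1.32 ± 0.24 log2 (SE) between the column sets (adjusted p = 0.00545). Cdh15, the cadherin of myoblasts, differed by 1.16 ± 0.19 log2 (SE) (adjusted p = 0.00405), and Atp2a1, the calcium pump of fast fibres, by 1.23 ± 0.20 log2 (SE) (adjusted p = 0.00395). Casq2, Sln, Pgam2 and Vgll2 were also called higher in the first 4 columns, by 1.06, 1.22, 0.85 and 1.03 log2. Eno3 and Srl were called at 0.38 and 0.27. The non-muscle-restricted tropomyosins Tpm1 and Tpm3 and the channel subunit Cacnb1 did not pass, at 0.13, 0.02 and 0.14 log2. The gene called lower in the first 4 columns was Dmd, dystrophin, with a difference of −0.25 ± 0.08 log2 (SE) (adjusted p = 0.0401).

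The 10 tested genes outside the members whose centred profile lay nearest the members' median, by root mean square distance over the 8 libraries, were Synpo2l, Casq2, Hfe2, Cdh15, Atp2a1, Apobec2, Acta2, Unc45b, Lmod3 and Mymx. Their distances ran from 0.051 for Synpo2l to 0.133 for Mymx, where the median tested member lay at 0.181 and the median other gene at 0.70. Of the 10, 6 were in the list of further muscle genes. Acta2, known as smooth muscle actin and also made by early skeletal muscle, was at 79.3, 78.9, 40.7 and 29.4 FPKM in null, 36.8 and 57.9 in wild type and 28.8 and 24.7 in heterozygote libraries.

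A list of genes upstream of the MyoD family also held Mef2a and Mef2d, which like Mef2c are partners of that family. Of its 13 tested genes, 4 were called higher and 3 lower in the first 4 columns, where 21.3% and 19.4% of all tested genes were. Between null and control 0 were called with limma, and 0 had an unadjusted p under 0.05. Pax7 was higher by 0.78 ± 0.15 log2 (SE) (adjusted p = 0.00655). Msc was also higher, by 0.84, as were Eya2 by 0.37 and Tbx1 by 0.39 log2. Six4, Mef2a and Isl1 were called lower, at −0.27, −0.20 and −0.60 log2. Lbx1, a factor of migrating limb and tongue progenitors, was at 0.0416 FPKM or lower in every library.

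Marker lists for other cells were read beside the muscle genes, and their part in the muscle differences was not tested. Smooth muscle had 5 of its 9 measured genes tested. Acta2, Tagln and Smtn were called higher in the first 4 columns, where 21.3% of all tested genes were, and Synpo2 higher in null, where 0.228% were. The summed FPKM of this list was 57.0 to 113 in null and 50.3 to 90.3 in controls, most of it Acta2. Myh11, a defining gene, stayed at 0.344 or lower, while Tagln was at 5.79 to 8.57 and Smtn at 13.5 to 18.2. Of the heart list, 5 of 10 genes were measured, and Myh6, Myl7 and Ryr2 were at 0.456 FPKM or lower. Tnni3 was higher, at 1.41 to 2.41 FPKM, and Hcn4 was at 0.801 to 1.33. Tendon genes had 3 of 5 called higher in the first 4 columns (Scx, Thbs4 and Tnc), where 21.3% of all tested genes were. Their summed FPKM was 101 to 113 in the first 4 columns and 82.5 to 100.4 in the last 4.

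Neuron genes followed another order than muscle. Their sum was highest in heterozygote 2 (161 FPKM), null 3 (157) and wild type 2 (105), and lowest in null 4 (47.8), with 0 of 11 called in either comparison (limma; 2 at an unadjusted p under 0.05 between null and control and 0 between the column sets). Chat, the defining enzyme of motor neurons, was at 0.0186 FPKM or lower. Slc5a7 and Isl2, also on the motor neuron list, were at 0.811 to 1.28 and 1.31 to 3.60 FPKM. Schwann cell sums were 46.3 to 84.9 FPKM with none of 8 called (limma; 0 and 2 at an unadjusted p under 0.05). All 9 palatal mesenchyme markers were measured and tested, with a sum of 729 to 761 FPKM in null and 622 to 697 in controls, which did not overlap. The list's median log2 level, centred per gene, did overlap, at 0.051 in heterozygote 1 and 0.032 in null 3. Of the 9, 1 was called higher and 1 lower in null, where 0.228% and 0.191% of all tested genes were. In the first 4 columns 3 were called higher and 4 lower, where 21.3% and 19.4% of all tested genes were. Markers of the back of the palate summed to 368 to 404 in null and 301 to 350 in controls, with none of 4 called between null and control (1 at an unadjusted p under 0.05). Markers of the front summed to 92.6 to 106 in null and 121 to 167 in controls, with 1 of 3 called lower in null, where 0.191% of all tested genes were. The lists share genes: all 4 back markers and the front markers Shox2 and Msx1 are also among the 9 mesenchyme markers. Their sums are therefore not separate observations.

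**Figure D5:**
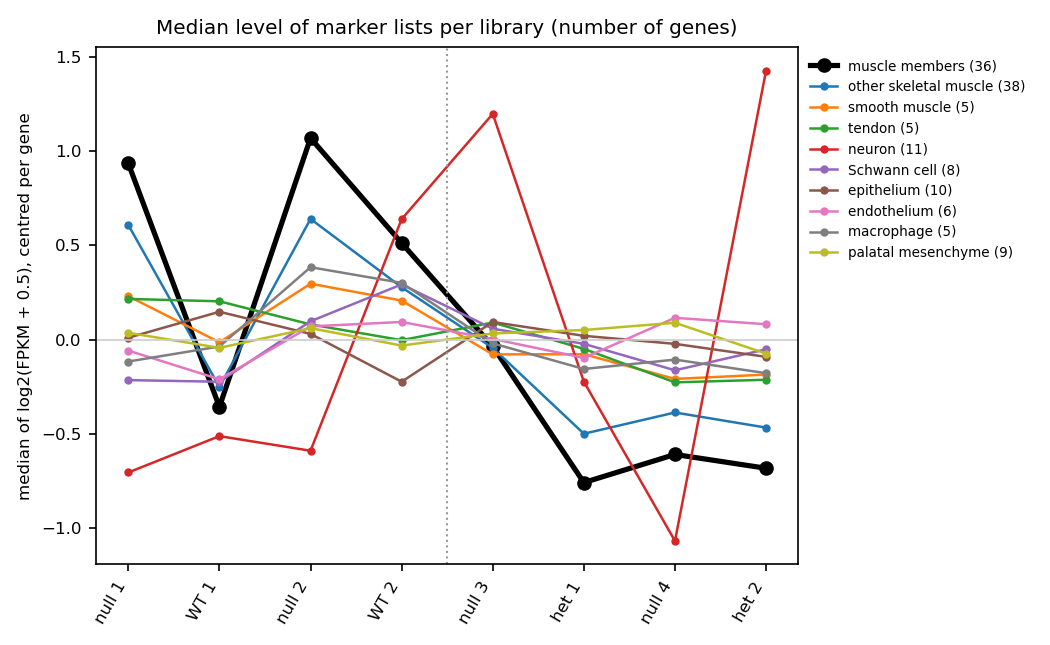
Median level of the members and of 9 marker lists in each library, as log2(FPKM + 0.5) centred per gene, with the number of genes in the key, libraries in the order of the table and a dotted line between its column sets. The black line of the muscle members and the blue line of further muscle genes run alike, the red neuron line peaks in null 3 and heterozygote 2, and the other lists drawn stay between −0.23 and 0.38.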

How the data were processed

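RNA was measured by sequencing of oligo(dT)-selected libraries (TruSeq RNA kit v2, which does not mark strand, per the labels' protocols). The authors deposited 1 table of FPKM values for 19083 Ensembl genes in 8 libraries; per the submitters' processing notes Novoalign 2.08.03, the build mm10 and DESeq2 were used, with no counter, annotation or filter named there. The FPKM moved in whole steps that gave whole reads for all 19083 genes (100.0%, tolerance 0.03 of a read), 37069101 to 51210254 per library, and the FPKM were scaled to these totals.

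Values were taken as log2(FPKM + 0.5) for the 13600 genes that reached an FPKM of 1 in 2 libraries or more. They were fitted with limma 3.58.1 in R 4.3.3 (empirical Bayes with trend, two-sided, Benjamini-Hochberg over all tested genes, called at an adjusted p under 0.05). Fold changes on this scale understate low genes. Null libraries were set against wild types and heterozygotes together, without further terms, and the first 4 against the last 4 columns (the column sets) with genotype as a term. An interaction term tested the difference between the column sets. The fits were also run on simulated reads drawn independently for each gene. Those data lack the shared variation of the members, so that run does not bear on the calls reported here. Summaries used Python 3.11.15 with pandas 2.3.3, and figures matplotlib 3.10.9. Positions, overlaps and shared 50-base words came from GENCODE M21 on GRCm38, in which 18752 identifiers were found and 331 were not, and promoters came from RefSeq on GRCm38.p6.

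Each null and the control of the same column set and title number formed a pair, which the labels do not state; deviations from the genotype means correlated within the 4 pairs at r = 0.17 to 0.57 over the tested genes, and at 0.13 to 0.41 between libraries of 1 column set with different numbers. Alternatives were 2 other pseudocounts, 2 filters, no trend, library weights, 2 scalings, voom on the recovered reads, blocks, subsets and leaving out each library. Count models were not used as the main test, because FPKM are not counts. The members, the gene lists and the rule for named genes were chosen with earlier results of these data known. That rule gives all myogenic factors, the fusion gene and the most abundant or called members of each role by library, and of other genes the most abundant of each list and the 10 nearest profiles. Of the table's columns, 0 belonged to other samples. A gene of the upstream list is not reported here.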

Additional observations from a re-analysis of the deposited data

Results flagged for a closer look

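Among 144 groups of 4 libraries (36 members in the null, control, first-4 and last-4 column groups), 10 held a library whose gap to its neighbour, as a share of the group's range, passed the 0.829 set for 4 values; chance gives about 1 in 20 groups, and members of a block that varies together are not independent. In the controls, wild type 2 stood far above the other 3 libraries for Smyd1 (0.910), Myh8 (0.861), Neb (0.966), Ttn (0.861) and Musk (0.877). In the last 4 columns, null 3 stood far above the other 3 for Myh3 (0.922), Actc1 (0.875), Acta1 (0.949), Tnnc1 (0.971) and Tnni1 (0.906).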

How the results depend on the processing

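The main fits called 0 of 34 members and 57 genes between null and control, and 32 members between the column sets. Between null and control, 35 genes were called with a mean FPKM of at least 5, 176 with the column set as a block, 11 against the heterozygotes alone, 2 and 3 within the first and last 4 columns, 0 and 4 within title numbers 44 and 56, and, in fits chosen after seeing the data, 417 with column set and title number as blocks and 307 with the 4 pairs as a replicate block. Leaving out 1 library gave 16 to 52 genes and 0 members; the count of genes moved by over 1.5 times without wild type 1 (16), null 2 (17), null 1 (21), wild type 2 or heterozygote 1 (28 each) or null 3 (29). The member called with the column set as a block was 1, Tnni2, and also 1 with both blocks (adjusted p = 0.0392), but 0 in the paired fit (0.0562). Between the column sets, 14 of 15 tested members were called with a mean FPKM of at least 5 (fewer were tested), 26 without a genotype term, and 0 members and 0 genes in the null or the control libraries alone, which have 2 against 2. Leaving out 1 library gave 28 to 33 members. Myf5 passed between the column sets without wild type 1 (0.76 log2, adjusted p = 0.00749).

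Signs turned for Mef2c between the column sets, at −0.044 with library weights, −0.0066 with upper quartile scaling, −0.10 to 0.075 without 1 library (below 0 without null 2 or null 4) and −0.10 in the controls alone. For Musk the null difference within the last 4 columns was −0.0035, and for Myf5 within title number 44 it was −0.13. The cause was not tested. The null medians ran from 0.26 to 1.09 log2 and those between the column sets from 0.74 to 1.32. Of the values recomputed for single results, 895 of those between null and control and 596 of those between the column sets kept direction and side of the threshold, and 93 of the latter lost the call. The title number alone as a block left the calls of members at 0 and 32. Depth limits Myf6 and Ckm, with at most 10 and 14 reads.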

Other observations

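Further marker lists gave these values with limma, with no explanation. Between null and control, epithelium had 0 of 10 genes called (2 at an unadjusted p under 0.05), endothelium 0 of 6, macrophage 0 of 5 and erythroid genes 0 of 6 (0 each at an unadjusted p under 0.05), while cartilage had 2 of 7 called lower in null, where 0.191% of all tested genes were. Cartilage summed to 157 to 177 FPKM in null and 201 to 229 in controls. Between the column sets, 3 of 10 epithelium, 1 of 6 endothelium, 3 of 6 erythroid and 3 of 7 cartilage genes were called higher in the first, where 21.3% of all tested genes were, and macrophage 0 of 5 (2 at an unadjusted p under 0.05). The neuron list spanned 47.8 to 161 FPKM in sum. It was lowest in null 4 (47.8), null 2 (53.4), null 1 (55.3) and wild type 1 (57.5). Null 1 and null 2 had the most muscle RNA, but null 4 was low in muscle RNA too. Wild type 2 was the third highest in both.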
